A study of Callithrix jacchus with 39 samples.

Results

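In 8 tissues of the common marmoset, the largest clusters of H3K27ac regions spanned a median of 19.9 kb, of which a median of 9.67 kb was covered. An H3K4me3 peak of the tissue lay in the span of 95.8% of them, against 71.7% of all clusters, which have shorter spans. By length, H3K4me3 covered 31.2% of their acetylated sequence, against 50.8% in the remaining clusters. The largest clusters, 100 of each tissue and 800 of 113654 in all, were chosen from the positions of the tissue's own H3K27ac peaks. That most of them are runs of several regions follows from the joining and ranking. Peaks met by the other replicate over at least 1 bp were kept and merged into regions, and regions with gaps of 12 kb or less were joined into a cluster. The clusters of a tissue were then ranked by covered length, which is the summed length of their regions without the gaps. Covered length, span and the strength of the tissue's own H3K27ac peaks are therefore descriptions with no test, and tests were made only on H3K4me3 and on libraries of other tissues. The shares under H3K4me3 and under H3K27ac of other tissues are still percents of covered length, which ranked the clusters. The part of the ranking in these shares was not tested. The remaining clusters of a tissue, past rank 100, are called the other clusters.

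The data are ChIP-seq peak lists for both marks in the digestive organs stomach, colon, liver and pancreas, in the muscles heart and skeletal muscle, and in kidney and spleen. Each tissue and mark was represented by replicates numbered 1 and 2, except that heart had H3K4me3 from replicate 2 alone, which gives 16 H3K27ac and 15 H3K4me3 libraries; the 8 input samples of the series are not analysed here. The labels name no treatment, genotype or age, and they do not say whether the numbers stand for different animals, so that the spread between replicates may be technical. Each tissue is a mixture of cell types, and in such bulk samples a mark in a few cells of one type and a weak mark in many cells cannot be told apart. No gene annotation of the genome build was used, so the tissue labels were not checked against marker genes and no cluster was assigned to a gene.

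H3K27ac, acetylation of lysine 27 of histone H3, is laid down at active enhancers and active promoters, whereas H3K4me3, trimethylation of lysine 4, is concentrated at promoters. Long runs of closely spaced enhancers have been described as stretch enhancers or super-enhancers and are known for lying near genes that define the identity of a cell. Super-enhancers are usually ranked by signal and often without promoters, whereas these clusters were ranked by length with promoters kept, and that name is not used for them here.

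H3K27ac lists held 24590 to 51554 peaks and H3K4me3 lists 16386 to 24424. How deeply each library was sequenced is unknown, and a missing peak says only that none was called. The reproducible regions of a tissue numbered between 15893 in heart and 31757 in liver, and clusters between 11159 in heart and 18246 in liver. The longest H3K27ac lists were those of liver and the shortest those of heart. Liver and heart were also at the ends of the order of tissues in cluster size and in sharing below. Between them the order of list length was not kept. Pancreas lists held 38827 and 37291 peaks and skeletal muscle lists 37118 and 34890, but median covered length of members was 9.10 and 10.9 kb. The part of list length in cluster size and sharing was not tested.

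The members were long but mostly open. Over all 800 the median span was 19.9 kb (range 6.47 to 71.8 kb), and the median covered length was 9.67 kb (range 5.48 to 20.9 kb). These medians depend on the rule: joining over gaps of 5 or 25 kb gave median spans of 12.9 and 48.3 kb, ranking by span gave 29.5 kb with 6.64 kb covered, and leaving out regions with H3K4me3 gave 6.34 kb covered. A member held a median of 6 regions (range 1 to 14), and its regions filled a median of 49.5% of the span. Only 5 members, namely 2 in spleen and 1 each in colon, heart and pancreas, consisted of 1 region, against 64% of all clusters, a contrast that the ranking itself produces. The longest region of a member measured 3.23 kb at the median. The members made up 0.548% to 0.896% of the clusters of a tissue and held 3.02% (liver) to 4.54% (skeletal muscle) of its reproducible H3K27ac length.

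Liver had the longest members at every rank and heart the shortest. The largest liver cluster covered 20.9 kb, followed by 18.8 kb in skeletal muscle, 16.6 kb in colon, 15.0 kb each in spleen and stomach, 14.9 kb in pancreas, 13.7 kb in kidney and 9.97 kb in heart. Median covered lengths of the 100 members were 12.7 kb in liver, 10.9 kb in skeletal muscle, 10.4 kb in colon, 9.25 kb in spleen, 9.10 kb in pancreas, 8.85 kb in stomach, 7.72 kb in kidney and 6.76 kb in heart. The drop from the first to the hundredth member was steep over the first 20 ranks and shallow after it, as the plot of covered length by rank shows. There was no step at the threshold: the clusters of rank 100 and next below it covered 11.505 and 11.471 kb in liver, 9.16 and 9.156 kb in colon, and 5.479 and 5.454 kb in heart. In kidney the values were 6.527 and 6.509 kb, in pancreas 7.779 and 7.762 kb, and in stomach 7.643 and 7.615 kb. In skeletal muscle they were 9.861 and 9.849 kb, and in spleen 8.082 and 8.078 kb. The choice of 100 thus set an arbitrary edge in a continuous order.

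**Figure D1:**
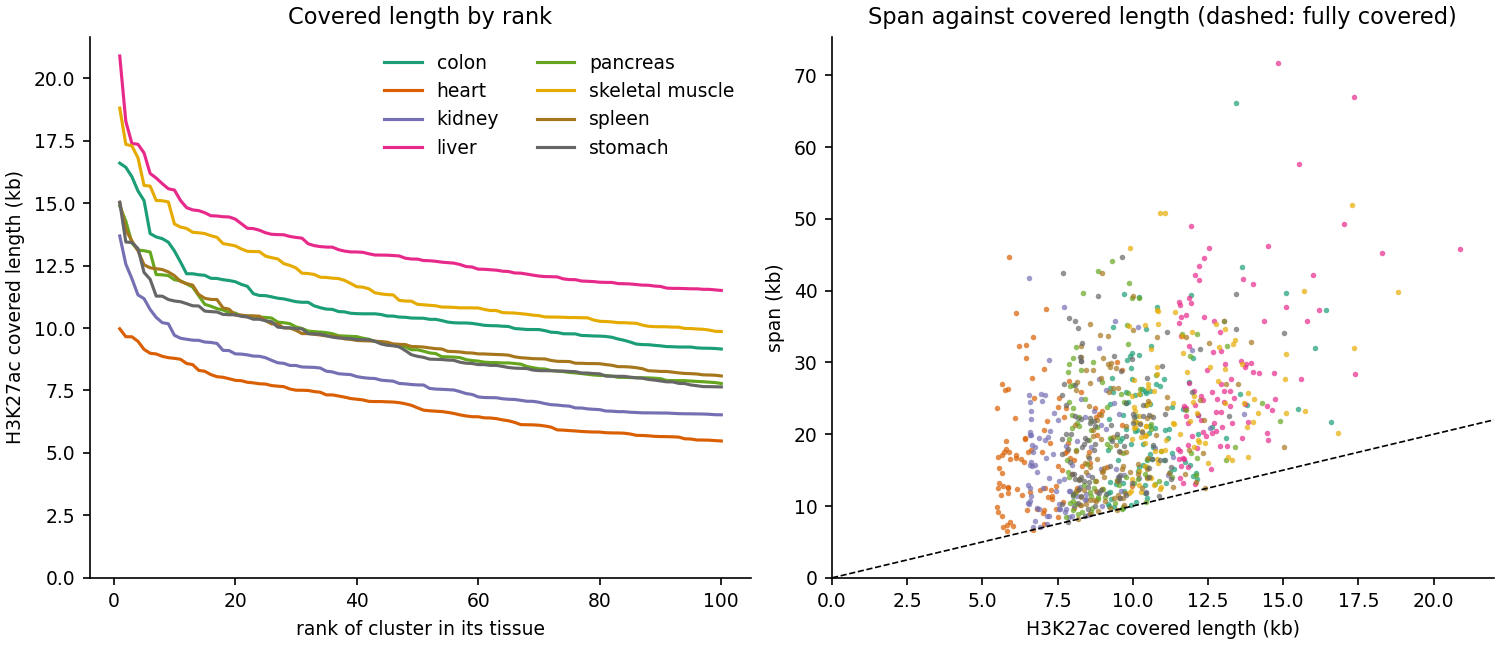
Left, covered length in kb against rank for the 100 largest clusters of each tissue, 1 line per tissue. Right, span in kb against covered length in kb for all 800 members, with a dashed line where a cluster has no gaps. Liver lies highest at every rank, from 20.9 kb to 11.5 kb, heart lies lowest, and most points lie far above the dashed line because the regions filled a median of 49.5% of the span.

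Span and covered length ranked the members differently. In 7 members the span passed 50 kb, namely 3 in liver, 3 in skeletal muscle and 1 in colon, and they were filled to between 20.3% and 33.3%. The widest was the liver cluster of rank 12 at chromosome 6, 16498291 to 16570071, with 14.8 kb of H3K27ac in 10 regions along 71.8 kb. The colon cluster of rank 9, at chromosome 8, 28485854 to 28552002, carried 13.4 kb in 13 regions along 66.1 kb. At the other end, 1 unbroken spleen region at chromosome 6, 100845800 to 100855284, made a member of rank 42 by itself with 9.49 kb. These positions are on calJac3, the build named in the peak names.

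Both replicates covered most of the members' length, which the rule favours by keeping only peaks that meet the other replicate. The coverage in the 2 libraries of the tissue had a median SD of 0.70 kb per member, against a median covered length of 9.67 kb. Replicate 1 covered 81.9% to 96.0% of the members' regions and replicate 2 84.4% to 96.0%. In colon replicate 1 had the larger coverage in 85 of 100 members, and in pancreas it had the larger coverage in 19, so that these libraries differed over most of their members. The largest stomach cluster was the extreme case, with 9.36 kb in replicate 1 and 19.1 kb in replicate 2 (14.2 ± 6.87 kb, SD, n = 2).

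The peaks inside the members were long and had −log10 p values close to those of other clusters, but their fold enrichment was low. The authors' peak caller gives each peak a fold enrichment and a −log10 p, which were ranked within each list. The median peak of the members lay at the 34.1 ± 6.79 percentile of fold enrichment, against 62.7 ± 1.45 for peaks of other clusters (SD, n = 8 tissues). In −log10 p the percentiles were close, at 65.6 ± 2.01 for members and 63.0 ± 1.41 for the other clusters. Peak length had medians of 852 ± 69.4 bp and 731 ± 57.6 bp (SD, n = 8). The fold enrichment of member peaks was lowest in skeletal muscle, at the 22.2 percentile, and highest in heart, at 44.0, and the −log10 p stayed between 62.0 (stomach) and 67.8 (spleen). These values come from the libraries that chose the members and are given as a description. Peaks without a partner in the other replicate count in the ranking of a list but are in neither set.

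Turning to H3K4me3, the mark of promoters, nearly every member held some of it but it covered a smaller part of the acetylated sequence than in other clusters. An H3K4me3 peak of the same tissue lay in the span of 766 of 800 members (95.8%), against 71.7% of all clusters. In 721 members every H3K4me3 library of the tissue had such a peak, a count not made over all clusters. Heart, with 1 library, gave 98 by either count, whereas skeletal muscle went from 96 to 74. Members have longer spans, and no test was made on these counts. The share of H3K27ac base pairs under H3K4me3 was 31.2 ± 7.48% in members and 50.8 ± 7.53% in the other clusters (SD, n = 8 tissues). The difference of -19.6 ± 6.01 percentage points was below 0 in 8 of 8 tissues (exact two-sided test that flips the signs of the n = 8 differences in all ways, p = 0.00781, Benjamini-Hochberg adjusted p = 0.00938 over 6 tests). This p is the smallest that 8 tissues can give, and it recurs below.

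Skeletal muscle members had the least H3K4me3 and kidney members the most. The share of the members' H3K27ac length was 16.6% in skeletal muscle, 26.9% in spleen, 29.9% in pancreas, 30.95% in liver, 33.1% in colon, 34.4% in heart, 35.2% in stomach and 42.6% in kidney. In the same order the other clusters had 44.4%, 45.04%, 46.2%, 43.7%, 48.0%, 62.7%, 58.0% and 58.0%. Skeletal muscle and heart thus had the widest gaps between members and other clusters, and liver the narrowest. The libraries of a tissue differed in level: members of skeletal muscle had 8.32% under H3K4me3 of replicate 1 and 24.9% under replicate 2, and those of pancreas 21.9% and 37.9%. In both tissues the list of replicate 1 was the shorter, and members lay below the other clusters in each library of every tissue. Heart rests on its single library.

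Most members lay between the extremes of H3K4me3 content, which held most of the clusters at large. It covered more than 50% of the H3K27ac length in 135 members (16.9%, against 56.1% of all clusters) and less than 10% in 99 (12.4%, against 29.7%), and 566 lay between. Members had a median of 6 regions, whereas 64% of all clusters had 1, and the part of region number in these shares was not tested. Of the first group 44 were kidney clusters and none was from skeletal muscle, whereas skeletal muscle gave 26 of the second. No H3K4me3 peak of the tissue lay in the span of 34 members, 2 to 7 per tissue. A median of 3 H3K4me3 peaks fell in a member in either replicate. The longest region carried H3K4me3 in 583 of 800 members, a share of 72.9% against 68.2% of all clusters. The direction differed between tissues. Members had the lower share in skeletal muscle (55 of 100, against 9060 of 13826 clusters) and in heart (70 of 100, against 8786 of 11159). In the remaining tissues members had the higher share, as in spleen (80 of 100, against 8688 of 13049). By number, 44.5 ± 5.69% of the members' regions and 61.3 ± 6.80% of the other clusters' regions met H3K4me3 (SD, n = 8).

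Regions outside H3K4me3 accordingly made up more of the members. H3K27ac regions with no H3K4me3 peak of the tissue held 42.9 ± 7.21% of the members' covered length and 31.6 ± 6.01% of that of the other clusters (SD, n = 8), a difference of 11.3 ± 7.59 percentage points. It was above 0 in 8 of 8 tissues (exact sign-flip permutation test, n = 8, p = 0.00781, a comparison added after the values were seen and not adjusted). Skeletal muscle stood at 59.1% and the other tissues between 34.2% (kidney) and 44.4% (liver).

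Acetylated sequence of the members was less often acetylated in other tissues than that of other clusters. Averaged over the 14 H3K27ac libraries of the 7 other tissues, 42.2 ± 14.3% of the members' covered length lay under their peaks, against 52.5 ± 10.9% in other clusters (SD, n = 8). The difference of -10.3 ± 5.44 percentage points was below 0 in all 8 tissues (n = 8, exact test by sign flips, p = 0.00781, adjusted p = 0.00938). A pair of tissues enters the values of both, so the 8 values are not fully independent. When regions with H3K4me3 were left out before joining, the difference turned to 3.68 points (exact permutation test, n = 8, adjusted p = 0.0156), so its sign rests on the regions with H3K4me3.

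Split by H3K4me3, the sharing moved in opposite directions. Among regions without H3K4me3 of the tissue, 29.1 ± 12.6% of the members' length and 21.0 ± 9.53% of the other clusters' length was acetylated in other tissues, a difference of 8.15 ± 3.47 points that was above 0 in all 8 tissues (SD, n = 8, exact test by sign flips, p = 0.00781, adjusted p = 0.00938). Among regions with H3K4me3 the values were 52.0 ± 14.3% and 67.3 ± 8.49%, a difference of -15.3 ± 7.68 points, and again all 8 tissues lay below 0 (exact test by sign flips, n = 8, unadjusted p = 0.00781). The former contrast exceeded the latter by 23.4 ± 4.95 points in 8 of 8 tissues (exact permutation test, n = 8, p = 0.00781; this test and that on regions with H3K4me3 were added after the values were seen). Members were thus more shared than other clusters away from H3K4me3 and less shared at H3K4me3. Regions of members were longer, with a median of 1205 ± 107 bp against 991 ± 90.7 bp (SD, n = 8). With the other regions weighted to the members' lengths in 5 strata, the differences were -12.005 points over all regions and 6.87 points without H3K4me3.

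Sharing differed more between tissues than between members and other clusters. Members of liver had 22.5% of their length acetylated elsewhere, those of skeletal muscle 24.8%, of colon 33.0%, of spleen 43.2%, of pancreas 48.2%, of stomach 50.2%, of kidney 52.2% and of heart 63.6%. In the same order the other clusters had 36.0%, 46.9%, 42.6%, 52.8%, 52.4%, 58.3%, 60.3% and 70.8%. Skeletal muscle had the widest gap, of -22.1 points, and pancreas the narrowest, of -4.14 points. Without H3K4me3 the gap was widest in kidney, at 12 points (38.0% against 26.02%), and narrowest in liver, at 3.10 points (13.95% against 10.8%).

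**Figure D2:**
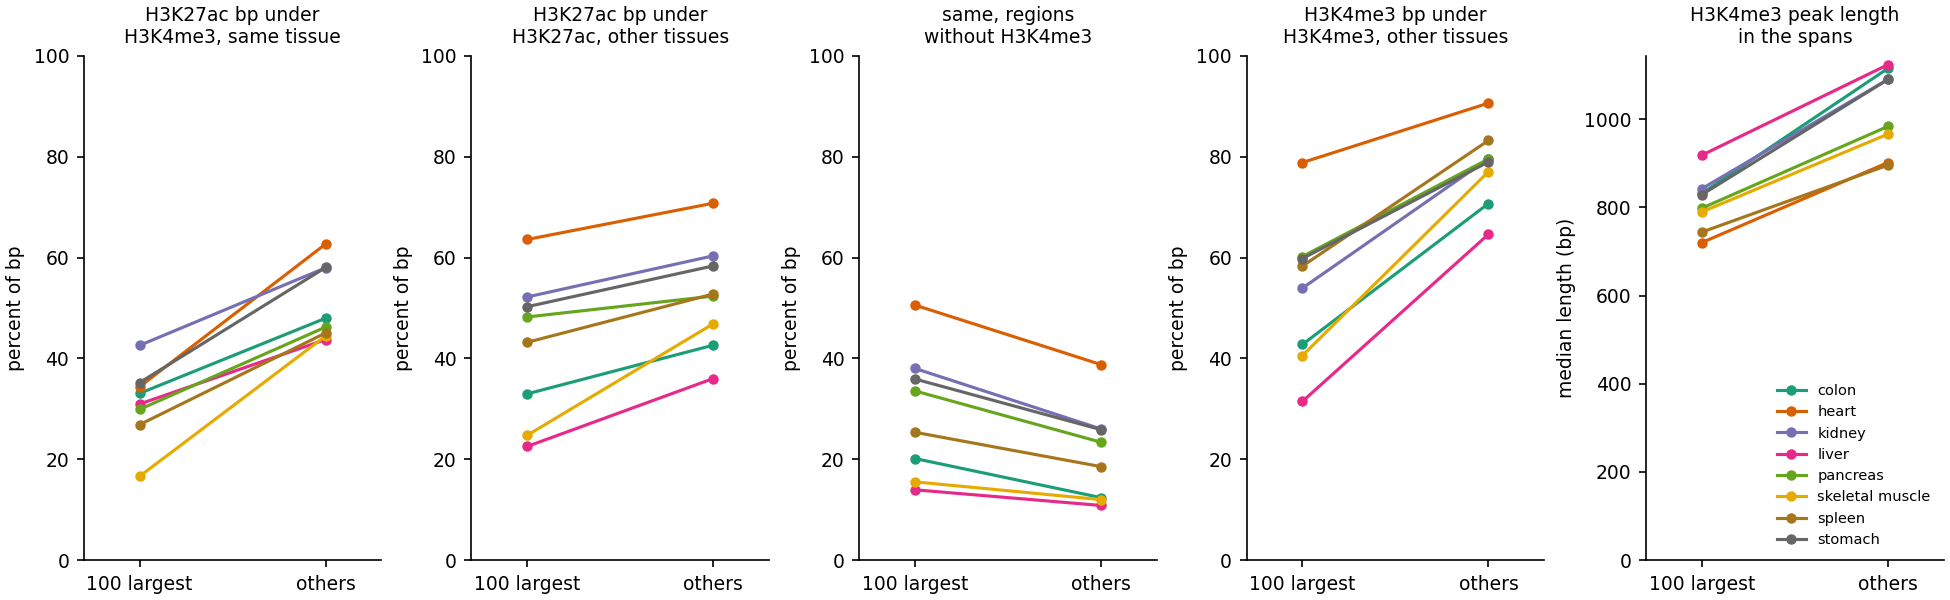
Each panel gives 1 value per tissue for the 100 largest clusters (left points) and for all other clusters (right points), joined by a line: from left to right, percent of H3K27ac bp under H3K4me3 of the same tissue, percent of H3K27ac bp under H3K27ac of other tissues, the same in regions without H3K4me3, percent of H3K4me3 bp under H3K4me3 of other tissues, and median H3K4me3 peak length in bp. All 8 lines rise from members to other clusters in every panel but the third, where all 8 fall.

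The H3K4me3 of the members was itself less common to the tissues and came in shorter peaks. Within the spans of members 53.2 ± 14.7% of H3K4me3 base pairs lay under H3K4me3 of a library of another tissue, against 78.0 ± 7.80% in the spans of other clusters (SD, n = 8). Members lay lower in all 8 tissues, by -24.8 ± 7.99 percentage points on average (n = 8, exact test by sign flips, p = 0.00781, adjusted p = 0.00938). It ranged from -36.4 points in skeletal muscle (40.6% against 77.0%) to -11.8 points in heart (78.8% against 90.6%). H3K4me3 peaks that touched a member had a median length of 810 ± 61.7 bp, against 1021 ± 95.1 bp for those that touched other clusters, a difference of -212 ± 46.8 bp, and were shorter at members in all 8 tissues (SD, n = 8, exact test by sign flips, p = 0.00781, adjusted p = 0.00938). Liver members had the longest, at 919 bp, and heart members the shortest, at 721 bp. Both measures count H3K4me3 anywhere in a span, also in gaps between H3K27ac regions, whereas 64% of all clusters had 1 region and so no gap. The part of the gaps in both differences was not tested. By count, H3K4me3 of all 8 tissues lay somewhere in the span of 611 of 800 members (76.4%), against 62.2% of all clusters, which was not tested either.

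None of these 5 differences set in at the edge of the members. Against the next 100 clusters, up to rank 200, no difference passed the threshold after adjustment: H3K4me3 content differed by -2.16 points (adjusted p = 0.223), sharing by -0.37 points (0.773), sharing without H3K4me3 by 1.74 points (0.223), H3K4me3 sharing by -4.54 points (0.141) and H3K4me3 peak length by -42.8 bp (0.141), all by exact sign-flip tests over 8 tissues. Before adjustment the last pair had p = 0.0469 and p = 0.0391 in the same exact tests. Against other clusters joined from 2 or more regions all 5 remained past the threshold, but with smaller values of -12.2 points for H3K4me3 content, -5.71 points for sharing and -95.3 bp for peak length. Joining over gaps of 25 kb gave -13.2 points for content and -5.36 points for sharing.

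By rank, H3K4me3 content rose from 29.8% in ranks 1 to 25 and 31.8% in ranks 26 to 100 to 33.4% in the next 100 clusters and 35.8% in ranks 201 to 500 (means of 8 tissues). It reached 46.1% in ranks 1001 to 2000 and 55.8% beyond rank 5000. Sharing in regions with H3K4me3 rose alongside, from 48.4% in the first 25 ranks to 70.3% beyond rank 5000. Without H3K4me3 it went the other way, from 28.4% and 29.6% in the members to 27.4% in the next 100 clusters and 17.7% beyond rank 5000.

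**Figure D3:**
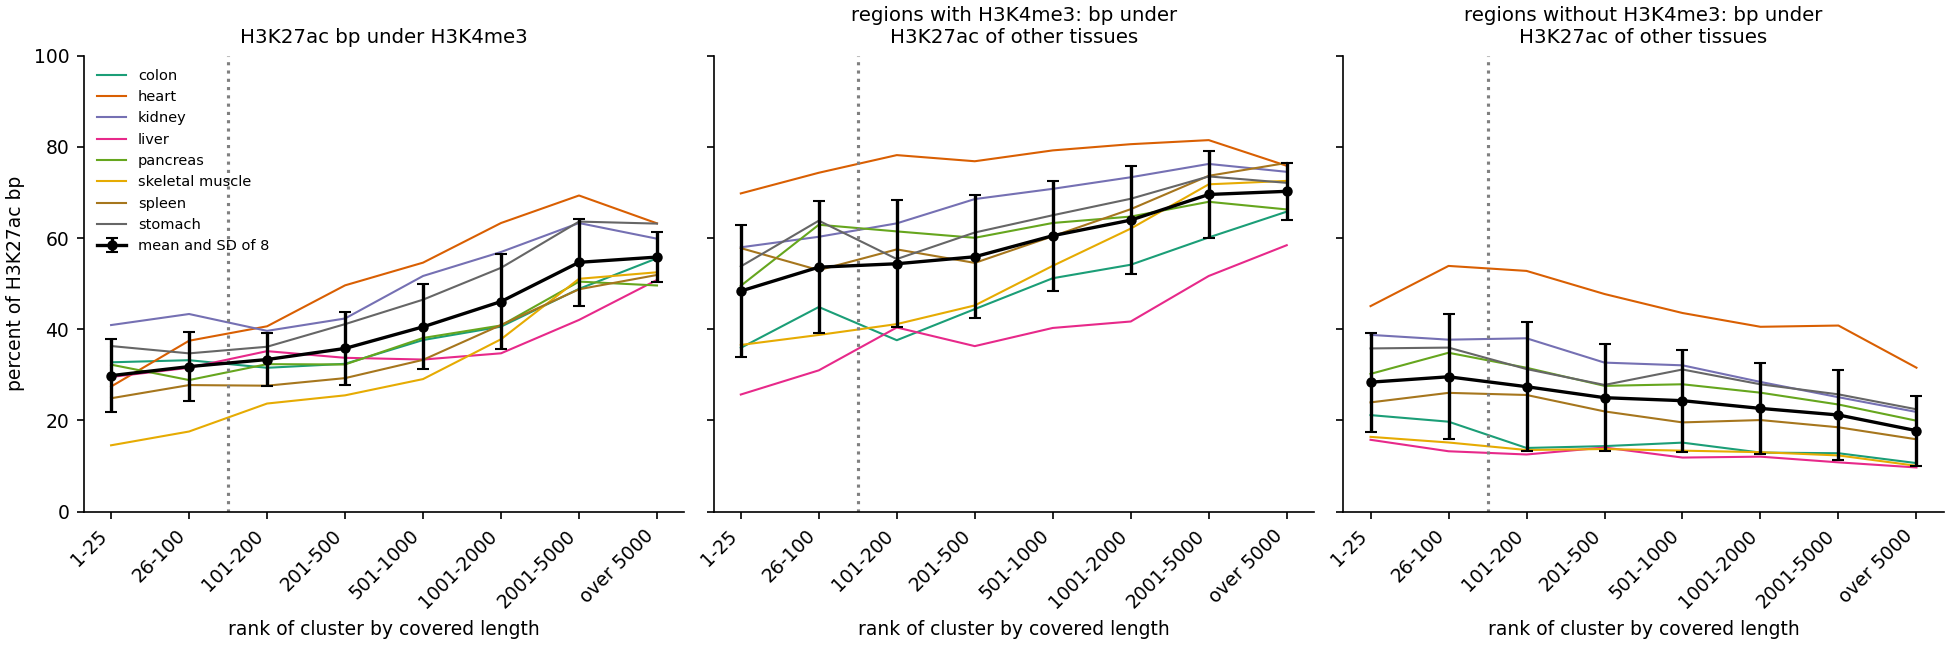
Mean percent of H3K27ac bp by rank bin of the clusters (x axis, largest at left), for H3K4me3 content (left), sharing with other tissues in regions with H3K4me3 (middle) and in regions without it (right). Thin lines are the 8 tissues, black points and bars the mean and SD over them, and the dotted line divides the members from the rest. The left and middle means rise from 29.8% to 55.8% and from 48.4% to 70.3%, the right mean falls from 28.4% to 17.7%, and none shows a step at the dotted line.

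As whole clusters, members rarely lacked H3K27ac elsewhere. Only 10 of 800 (1.25%) met no H3K27ac peak of any library of another tissue, against 8.82% of all clusters: 3 each in liver and skeletal muscle, 2 in colon and 1 each in kidney and pancreas. Reproducible H3K27ac of all 7 other tissues met 540 of 800 (67.5%), against 46.6% of all clusters. Members are longer than other clusters, and the part of length in both shares was not tested. The share of members met in all 7 other tissues was highest in heart, at 84 of 100, and lowest in colon, at 54 of 100. Over all clusters of these tissues it was 59.1% in heart, also the highest of the 8, and 43.1% in colon.

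What a member of one tissue was in another varied from a member to nothing. Over the 5600 combinations of a member with another tissue, the locus was also among the 100 largest there in 1222 (21.8%, against 0.674% over all clusters) and met a cluster past rank 100 but within the first 1000 in 1872 (33.4%, against 5.35%). It met only smaller clusters in 1611 (28.8%, against 60.2%), only peaks without a reproducible region in 328 (5.86%, against 8.49%) and no peak in 567 (10.1%, against 25.3%). Of those 567 combinations without acetylation, 195 (34.4%) nevertheless had H3K4me3 of that tissue in the span, against 12.1% of such combinations over all clusters. Longer clusters were not compared at equal length, so these shares are a description. Liver and skeletal muscle members accounted for 121 and 116 of the 567, and heart members for 11.

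A member of one tissue often lay on a member of another. This held for 441 of 800 (55.1%), against 2.93% of all clusters. Pooled over tissues, the share was 35.4% of the 99 members with less than 10% H3K4me3, 55.1% of the 566 with 10 to 50% and 69.6% of the 135 with more. The median share of their length acetylated in other tissues was 22.8%, 39.6% and 68.8% in these groups. Tissues fill the groups unequally, with kidney giving 44 of the 135 and skeletal muscle none. Within tissues, members with more than 50% H3K4me3 lay on another tissue's member more often than those with less than 10% in 6 of 7 tissues, heart being the exception (55% of 20 against 62.5% of 8), and their median shared length was higher in 7 of 7. The pooled rise was not kept at each step. Members with 10 to 50% stood above those with more in kidney (69.4% against 59.1%) and heart (59.7% against 55%), and below them in the rest of the 7. Stomach members lay on a member of another tissue most often, in 78 of 100, against 3.42% of all stomach clusters. Liver members did so least often, in 34, against 2.31% of all liver clusters.

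Joined where they overlapped, the 800 members made 501 distinct loci. Of these 359 belonged to 1 tissue, 68 to 2 tissues, 36 to 3, 13 to 4, 11 to 5, 9 to 6, 4 to 7 and 1 to all 8. Liver had 66 loci of its own, skeletal muscle 63, colon 51, spleen 48, heart 41, kidney 37, pancreas 31 and stomach 22. A locus of 1 tissue was usually acetylated elsewhere too, since only 10 members lacked any H3K27ac in other tissues; membership depends on length.

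Pancreas and stomach shared the most members, 49 of 100. Colon with stomach followed with 38, kidney with stomach with 35, heart with stomach with 34 and kidney with pancreas with 33. The fewest were 9, in colon with skeletal muscle, and liver shared 10 with skeletal muscle and 10 with spleen. Averaged over its 7 partners, stomach shared 30.1 members, pancreas 28, kidney 26, heart 24.3, spleen 21, colon 19.1, and liver and skeletal muscle 13 each. The related pairs, colon with stomach and heart with skeletal muscle (18 members, rank 14 of 28 pairs), averaged 28 shared members against 21.3 in the other 26 pairs. This difference of 6.65 members missed the threshold (exact permutation of the pairs in all 210 ways, two-sided p = 0.390, adjusted p = 0.390).

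In base pairs the relation between tissues was not symmetric. Peaks of liver covered 70.1% of the members' length of heart, the highest value, while peaks of heart covered 15.2% of that of liver, the lowest. Liver lists were the longest and heart lists the shortest, and the part of list length in these values was not tested. Between colon and stomach, 64.9% of the stomach members' length lay under colon peaks and 49.8% of the colon members' length under stomach peaks.

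**Figure D4:**
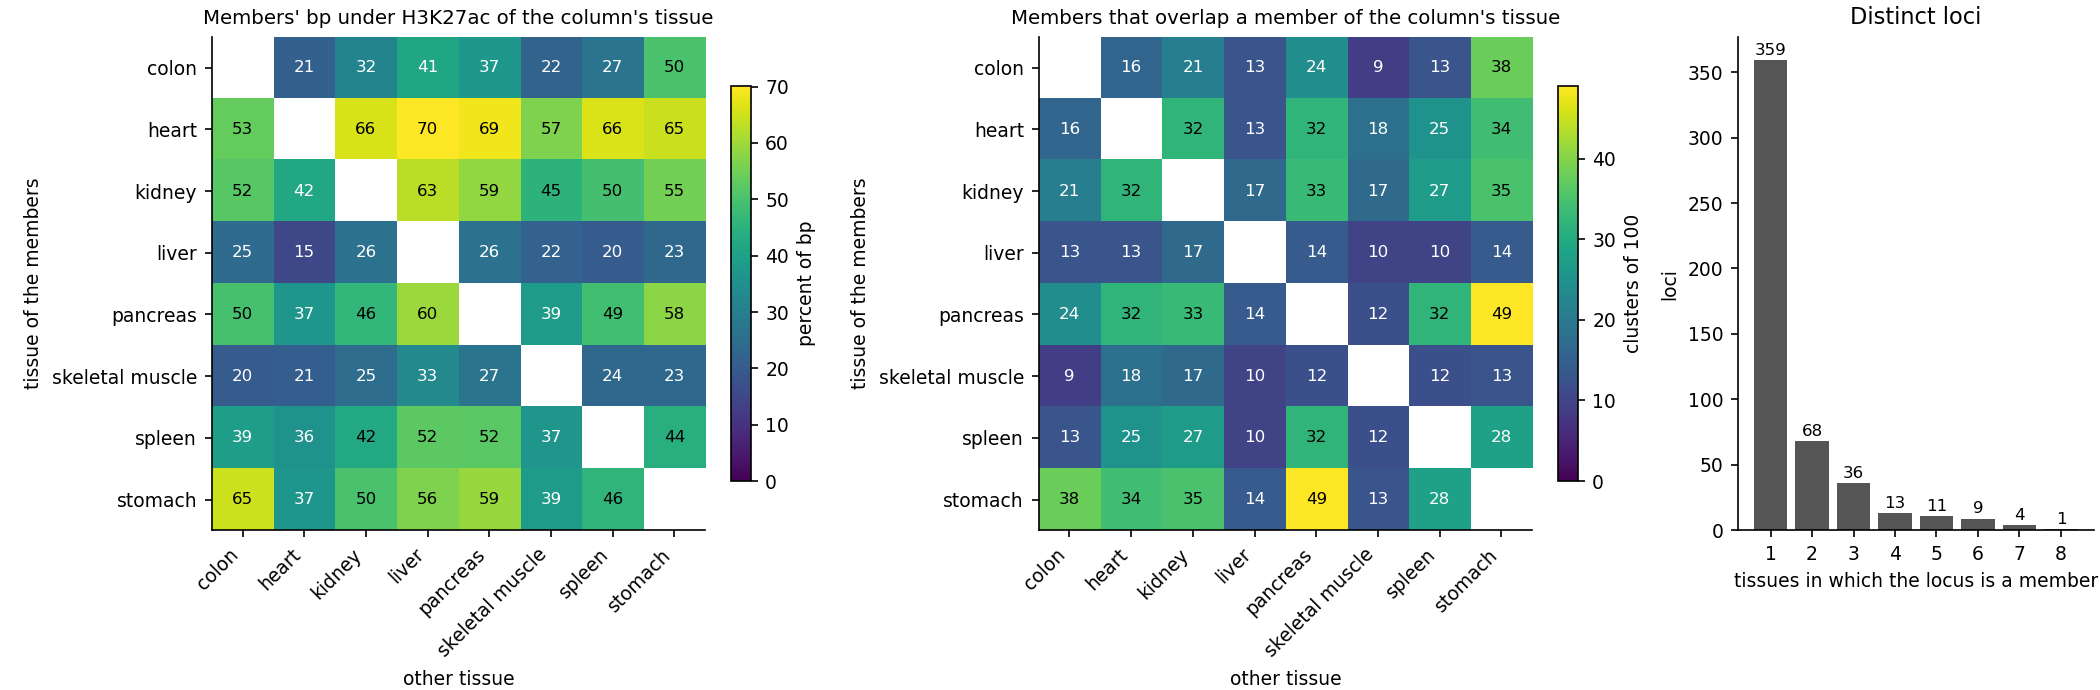
Left, percent of the members' covered bp of the tissue in each row that lies under H3K27ac peaks of the tissue in each column (mean of its libraries). Middle, number of the 100 members in each row that overlap a member of the column's tissue; right, number of distinct loci by the number of tissues in which they are members. The heart row is bright and the liver and skeletal muscle rows are dark at left, pancreas with stomach is highest in the middle at 49, and 359 of 501 loci at right belong to 1 tissue.

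The locus that was a member in every tissue lies at chromosome 22, 32689462 to 32715883. Its H3K27ac coverage in replicates 1 and 2 was 11.1 and 11.3 kb in colon, 6.35 and 6.27 kb in heart, 7.81 and 9.69 kb in kidney, and 11.6 and 12.6 kb in liver. In pancreas it was 10.1 and 9.59 kb, in skeletal muscle 10.1 and 9.22 kb, in spleen 12.1 and 11.03 kb, and in stomach 10.3 and 10.9 kb. Heart was lowest in both libraries, and the ranks ran from 11 in stomach to 67 in heart. H3K4me3 was present in all 15 libraries, at 2.74 kb (pancreas, replicate 1) to 8.09 kb (liver, replicate 2), and covered 31.2% to 52.5% of the acetylated length.

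Each of the next 4 loci was a member in 7 tissues. The locus at chromosome 11, 16533718 to 16559500, was the largest kidney cluster, rank 2 in pancreas and rank 4 in skeletal muscle and stomach, and was no member in spleen. Over the whole locus the kidney libraries covered 11.3 and 13.5 kb, and the spleen libraries 11.9 and 5.14 kb, the latter being the lowest of the 16 H3K27ac libraries. The locus at chromosome 18, 4536522 to 4554908, was the largest spleen cluster (13.9 and 14.1 kb) and no member in liver, where the libraries still covered 11.1 and 8.81 kb. The loci at chromosome 5, 39492368 to 39522273, and chromosome 16, 50701637 to 50720381, were members in all tissues but spleen, and the former was rank 3 in liver with 17.4 kb covered. Tissues without a member at these loci thus still carried H3K27ac there. The covered length needed for membership differed between tissues. In liver the cluster of rank 100 covered 11.505 kb, against 5.479 kb in heart. Over the chromosome 18 locus, mean H3K27ac coverage was nonetheless higher in liver (9.95 kb, no member) than in heart (8.02 kb, a member). Spleen averaged 6.35 kb at the chromosome 5 locus and 6.95 kb at the chromosome 16 locus, and its cluster of rank 100 covered 8.082 kb. At the chromosome 11 locus spleen averaged 8.50 kb, above that value, with replicates that differed widely, and still had no member.

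**Figure D5:**
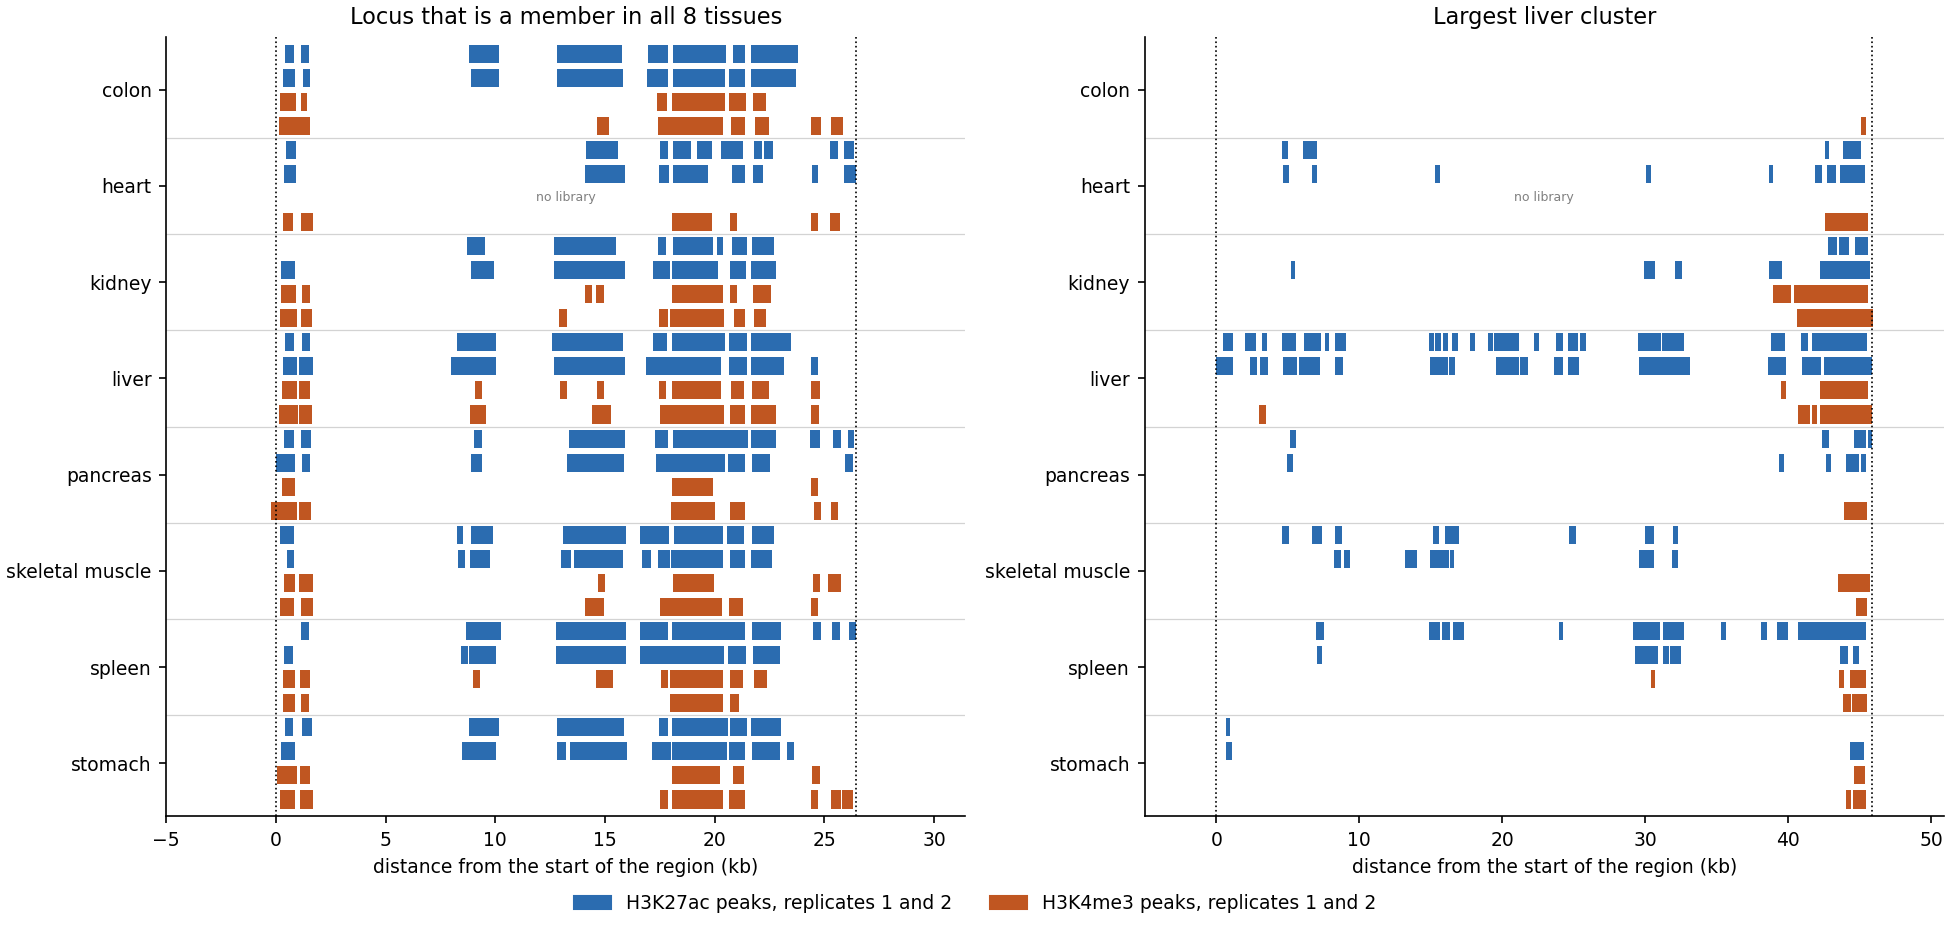
Peaks of every library along the locus that is a member in all 8 tissues (left) and the largest liver cluster (right), with distance from the start of the region in kb on the x axis and tissues as row groups. In each group the blue bars are H3K27ac of replicates 1 and 2 and the orange bars H3K4me3 of replicates 1 and 2 (heart has no replicate 1), and dotted lines mark the region. The left locus has H3K27ac and H3K4me3 in every library, whereas the right one holds 19.4 and 19.9 kb of H3K27ac in the liver libraries and at most 12.5 kb (spleen, replicate 1) in a library of another tissue.

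The largest cluster of each tissue ranged from shared to nearly private. The heart cluster at chromosome 11, 121153256 to 121166007, covered 9.80 and 9.19 kb in the heart libraries, and 79.6% of it was acetylated in other tissues, where it was a member in 5. In kidney and spleen, whose largest clusters are the loci given above, 71.3% and 66.1% were acetylated elsewhere. The stomach cluster at chromosome 6, 11023841 to 11057953, had 41.3%, and the pancreas cluster at chromosome 14, 40433781 to 40455649, covered 13.3 and 14.9 kb and had 30%.

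The remaining first clusters were less shared. The largest liver cluster, and the largest of all, lies at chromosome 6, 134303720 to 134349583, and held 14 regions along 45.9 kb with 19.4 and 19.9 kb in the liver libraries (19.7 ± 0.34 kb, SD, n = 2). In spleen the same span held 12.5 kb in replicate 1 and 4.20 kb in replicate 2, in skeletal muscle 4.54 and 4.78 kb, in kidney 2.21 and 6.06 kb, in heart 2.92 and 4.52 kb, and in colon none. Its H3K4me3 was 3.71 and 5.25 kb in liver and 6.39 and 5.23 kb in kidney, so that kidney exceeded liver in replicate 1 alone. Its peaks were among the lowest by the authors' fold enrichment, at a median percentile of 0.75 in the liver lists.

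The largest skeletal muscle cluster, at chromosome 16, 53194516 to 53234305, held 16.3 and 16.9 kb along 39.8 kb, with 7.80% acetylated in other tissues. Heart had 1.83 and 3.80 kb there and pancreas 3.44 and 5.28 kb, while colon had none. H3K4me3 measured 0.35 and 3.93 kb in skeletal muscle, 1.72 kb in heart and 1.48 and 2.24 kb in pancreas, and was at 0 in every library of the rest. The mark was thus confined to skeletal muscle, heart and pancreas among these 15 libraries.

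The largest colon cluster, at chromosome 6, 114742720 to 114764439, combined a low share of H3K27ac elsewhere with widespread H3K4me3. Its colon libraries covered 15.6 and 13.96 kb of H3K27ac and 7.81 and 10.5 kb of H3K4me3. Only 1.97% was acetylated in other tissues, in 5 of 14 libraries, and pancreas, skeletal muscle, spleen and stomach had no H3K27ac peak on it. H3K4me3 was nonetheless present in all 7 other tissues, with 2.78 and 3.04 kb in stomach, 1.45 and 4.56 kb in skeletal muscle and 4.52 and 3.82 kb in kidney. With regions that carry H3K4me3 left out before joining, none of this cluster remained.

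The 34 members without H3K4me3 in their tissue were spread over all tissues: 7 in pancreas, 5 each in colon, kidney and liver, 4 each in skeletal muscle and stomach, and 2 each in heart and spleen. The largest in liver, at chromosome 22, 27781227 to 27800465, covered 13.4 and 11.7 kb in 4 regions. It was met by kidney (2.22 and 1.53 kb) and skeletal muscle (1.49 and 2.76 kb) alone, and no library of any tissue had H3K4me3 there. The largest in colon, at chromosome 15, 22577219 to 22596653, covered 12.8 and 9.91 kb. Stomach had 7.75 and 8.35 kb of H3K27ac on it and pancreas 4.85 and 7.04 kb, and heart had only 0.42 kb in replicate 2. H3K4me3 was at 0 there in all 15 libraries.

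The largest members without H3K4me3 in the remaining tissues varied in how far they were shared. The largest in stomach, at chromosome 12, 51793644 to 51813345, had 7.65 and 9.15 kb in stomach, 6.83 and 5.93 kb in skeletal muscle and 5.78 and 5.65 kb in spleen, and H3K4me3 only in liver replicate 2 (0.66 kb). The largest in kidney, at chromosome 16, 360497 to 383438, was acetylated over 64.6% of its length in other tissues. The largest in heart, at chromosome 10, 122643391 to 122652483, was rank 47 with 6.43 and 5.49 kb. In pancreas the largest lies at chromosome 19, 45270096 to 45304006, with 6.95 and 11.9 kb in replicates that differed widely. Liver had more H3K27ac on that span, 17.8 and 14.6 kb, with 1.53 and 3.37 kb of H3K4me3, and colon had 11.2 and 8.88 kb. The largest in spleen, at chromosome 11, 26745968 to 26764481, held 7.93 and 8.78 kb, and that of skeletal muscle lies on an unplaced sequence of the assembly with 10.9 and 10.2 kb. These 8 members without H3K4me3 thus ranged from 3.54% (skeletal muscle) to 64.6% (kidney) acetylated elsewhere.

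Of the 10 members without any H3K27ac in other tissues, 2 also lacked H3K4me3 in every library of their own tissue. One is a liver cluster of rank 30 at chromosome 15, 62790670 to 62810110, and the other a skeletal muscle cluster of rank 99 at chromosome 13, 88673781 to 88685639, with 8.48 and 9.56 kb. In 2 further skeletal muscle clusters H3K4me3 was called in replicate 2 alone, with 5.38 kb at rank 33 and 3.60 kb at rank 81. The liver cluster of rank 91, at chromosome 7, 68423970 to 68457615, instead held 4.33 and 5.74 kb of H3K4me3 in liver, and 4 other tissues had H3K4me3 in its span. The liver cluster of rank 83, at chromosome 5, 42233796 to 42257390, had 11.2 and 9.85 kb of H3K27ac with 0.36 and 0.34 kb of H3K4me3. The colon cluster of rank 3, at chromosome 5, 108814664 to 108846687, covered 15.5 and 12.1 kb, with 6.56 and 9.17 kb of H3K4me3. A kidney cluster of rank 50 had 1.17 and 1.09 kb of H3K4me3 and a pancreas cluster of rank 18 had 0.83 and 3.10 kb. No other tissue had H3K4me3 in the spans of these kidney and pancreas clusters. Members without acetylation elsewhere thus included both clusters rich in H3K4me3 and clusters without it.

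In heart, spleen and stomach no member was free of H3K27ac from other tissues, and the least shared members were a heart cluster of rank 11, a spleen cluster of rank 11 and a stomach cluster of rank 45. The heart cluster, at chromosome 3, 15941466 to 15965066, covered 6.77 and 8.53 kb in heart and up to 3.23 kb elsewhere (liver, replicate 1), with 2.69 kb of H3K4me3 in heart and 2.62 and 3.68 kb in skeletal muscle, where no H3K27ac peak was called. The spleen cluster, at chromosome 2, 66913755 to 66931586, covered 12.2 and 7.74 kb, and of the other tissues only heart had H3K27ac there, with 0.56 and 0.43 kb. The stomach cluster, at chromosome 2, 156270825 to 156289872, covered 7.39 and 9.89 kb and was met by pancreas alone, with 2.51 and 1.83 kb. Averaged over the 14 other libraries, 7.55% of the heart cluster, 0.593% of the spleen cluster and 2.73% of the stomach cluster was acetylated elsewhere, and the heart cluster was met in 7 of those libraries against 2 for each of the others.

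Members were unevenly spread over the chromosomes. Chromosome 5 held 98 of 800 (12.2%; 8.31% of all clusters), chromosome 22 held 78 (9.75%; 4.77%) and chromosome 11 held 72 (9%; 5.16%). Chromosome X itself, with 2.33% of all clusters, and chromosome Y held none, but a heart member lay on X_GL286136_random, a sequence named for X. Chromosomes 21 and 17 had 3 and 8 members. A total of 776 members lay on assembled chromosomes and 24 on other sequences, which are unplaced or, like X_GL286136_random, carry a chromosome's name. No test was made on these counts, because members of different tissues at 1 locus are counted once per tissue.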

How the data were processed

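H3K27ac and H3K4me3 ChIP-seq peaks of 8 marmoset tissues were used as deposited, 1 narrowPeak list per library. Per the submitters' processing notes, the tools were MACS2 2.1.1.20160309, bedtools 2.26, Bowtie 1.1.2 and SAMtools 1.3.1, with no role stated. Peak names carry calJac3, which was taken as the build. The deposited fold enrichment is a ratio, and the deposited −log10 p and −log10 q are the authors' significance values. These were used only to rank or filter peaks within 1 list. The use of the inputs and the read depth are not given in the sources used here, so no counting error could be computed; the shortest peak was 300 bp and the lowest −log10 p 5.09.

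Titles gave the tissue, mark and replicate number of each library. H3K27ac peaks overlapping the other replicate by 1 bp or more were merged, joined over gaps of 12 kb or less and ranked by covered length. H3K4me3 values are means over the libraries of a tissue, and sharing is a mean over 14 libraries of 7 other tissues. Differences were taken per tissue and tested with two-sided exact sign-flip permutation tests over 8 tissues, and the related pairs over 210 arrangements. Benjamini-Hochberg adjustment covered 6 tests at a threshold of 0.05. Named clusters were, per tissue, the largest, the largest without H3K4me3 and the least shared, plus the 5 loci that were members in most tissues; members with spans over 50 kb, those of 1 region and those without H3K27ac elsewhere were named after their values were seen. The members, tests and rules were chosen with earlier results of these data known. Interval code in Python 3.11.15 used pandas 2.3.3 and numpy 2.4.6 and was tested on simulated data, and figures were drawn with matplotlib 3.10.9. Alternatives were gaps of 5 and 25 kb, 50 or 200 members, ranking by span, the 20000 strongest peaks of each list, peaks of −log10 q 5 or more, 50% overlap, assembled chromosomes, regions with H3K4me3 left out, other comparison clusters, a replicate block and leaving out libraries. Weighting by 5 strata of region length was added after the data were seen.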

Additional observations from a re-analysis of the deposited data

Results flagged for a closer look

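Among the 8 tissues, skeletal muscle stood apart in the share of the members' covered length that lay in regions without H3K4me3 of the tissue, at 59.1%. Its gap to the nearest tissue (liver, 44.4%) was 0.590 of the range over 8 tissues, and 1 of 21 sets of tissue values examined in this way had such a gap, and chance gives about 1 in 20. The H3K4me3 list of skeletal muscle replicate 1 was one of the shortest, with 16850 peaks against 24424 in replicate 2; a region counted as marked if either library had a peak, and the part of list length in the value was not tested.

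The contrast between members and other clusters in H3K27ac sharing differed between regions without and with H3K4me3 by 23.4 percentage points, with the same sign in 8 of 8 tissues (exact sign-flip permutation test, n = 8, p = 0.00781, added after the values were seen).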

How the results depend on the processing

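The 5 differences between members and other clusters kept their direction and stayed past the threshold under all settings tried, with these exceptions. With regions that carry H3K4me3 left out before joining, H3K27ac sharing reversed to 3.68 points (exact permutation test, n = 8, adjusted p = 0.0156). Against the next 100 clusters alone (to rank 200), content was -2.16 points, sharing -0.37, sharing without H3K4me3 1.74, H3K4me3 sharing -4.54 points and H3K4me3 peak length -42.8 bp, none past the threshold. Leaving out libraries gave -19.9 to -13.2 points for content, -10.8 to -6.24 for sharing, 7.63 to 9.16 without H3K4me3, -26.5 to -21.2 for H3K4me3 sharing and -220 to -151 bp for peak length. The value of -6.24 came from leaving out all libraries numbered 2, and single libraries moved sharing no further than -9.38. Related pairs ranged from 2.38 to 8.65 without libraries and from 0.62 to 8.87 members under other settings, short of the threshold throughout. Distinct loci numbered 494 to 516 without single libraries and 449 to 619 under other settings, and loci of 1 tissue 345 to 376 and 294 to 505.

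Over 65161 regions, the common deviation of same-numbered libraries of different tissues was small and positive at the median (28 correlations, -0.02 to 0.16, median 0.04). These values do not settle whether libraries are paired by number, and the labels do not say whether animals are shared. With the replicate block the values were -16.2, -8.21, 9.39 and -22.9 points, -180.0 bp and 5.65 members, with no call changed. Over 24 named clusters and 288 recomputed coverages, 111 moved by more than the replicate SD, 102 of them down. Median span ranged from 12.9 to 48.3 kb and median covered length from 6.34 to 11.3 kb over all settings. Depth is unknown, so absence of a peak limits every value of sharing.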
